A study of Mus musculus and Homo sapiens with 12 samples.

Results

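Among the sites where the deacylase SIRT7 was mapped in mouse embryonic fibroblasts (MEFs), a group of peaks was picked by width. That width was taken as near that of a whole long interspersed (L1) element, whose length was not measured here. The width class held the peaks on autosomes 1 to 19 that were at least 5.25 kb and less than 6.25 kb wide. It had 6818 members of the 65422 autosomal peaks and of the 72622 peaks in the MEF list, and a further 701 peaks of this width lay on chromosomes X and Y. The members were picked by their width in the same list that is described below, and the authors' score comes from the same peak call, so every value is a description and none is a test. The class was also chosen with earlier results of these data known.

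The assay was ChIP-seq, in which DNA bound by an antibody's target is sequenced and stretches rich in reads are called as peaks. The MEFs were wild type, of strain 129s2, taken from embryos of day 14.5 and used at passages 2 to 3. The series also held SIRT7 ChIP in K562, a human leukaemia line, H3K18Ac ChIP in wild-type MEFs, SirT7-/- MEFs and K562 cells, and an input for each cell type, 12 samples in 7 groups. The MEF SIRT7 group had 2 samples, and the list is recorded under replicate 1. No list of a second replicate, no input and no SIRT7 ChIP of SirT7-/- cells was analysed here, so the spread between replicates is unknown, no p-value is given, and intervals are 95% intervals that cover counting error only and treat each peak as a separate observation. A peak list does not give the read depth, on which all its values depend. A peak list also gives no marker expression, so the cell type rests on the labels.

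SIRT7 belongs to the sirtuins, enzymes that strip acyl groups from proteins, and one of its known targets is acetylated lysine 18 of histone H3 (H3K18Ac). L1 elements are retrotransposons that copy themselves through RNA, and a full-length copy holds a promoter in its 5′ end followed by 2 reading frames. Most L1 copies in a mouse genome are cut short at the 5′ end, and an element needs its full length to move on its own. The study's title concerns SIRT7, L1 elements and the nuclear lamina, the protein layer under the nuclear envelope. Repeat and gene annotation of build mm9 was not used here, so whether a member lies on an L1 element or in a gene was not tested, and members are named by position. The reads came from a 129 strain and were placed on mm9, which was built from C57BL/6J, and elements carried by only one of these strains would be missed or misplaced. No sequence is printed, because no mm9 genome was used here.

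The members made up 10.4% (10.2 to 10.7) of autosomal peaks and 33.4% of the length that these peaks covered, 40.5 of 121 Mb. The larger share of length follows from the choice of wide peaks. Their widths were far from even across the class. The median was 5972 bp (5968 to 5974), with quartiles of 5886 and 6076 bp. In steps of 50 bp the fullest began at 5950 bp and held 1282 peaks, and the 2 steps before it held 917 and 463. The 3 steps that begin at 5900 bp held 2933 members, 43.0% of the class. Above that top the numbers did not fall smoothly: the 3 steps up to 6200 bp held 620, 613 and 525 members, and the next step held 273. The lower part of the class was thin, with 932 members under 5.75 kb against 5886 from 5.75 kb upward.

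**Figure D1:**
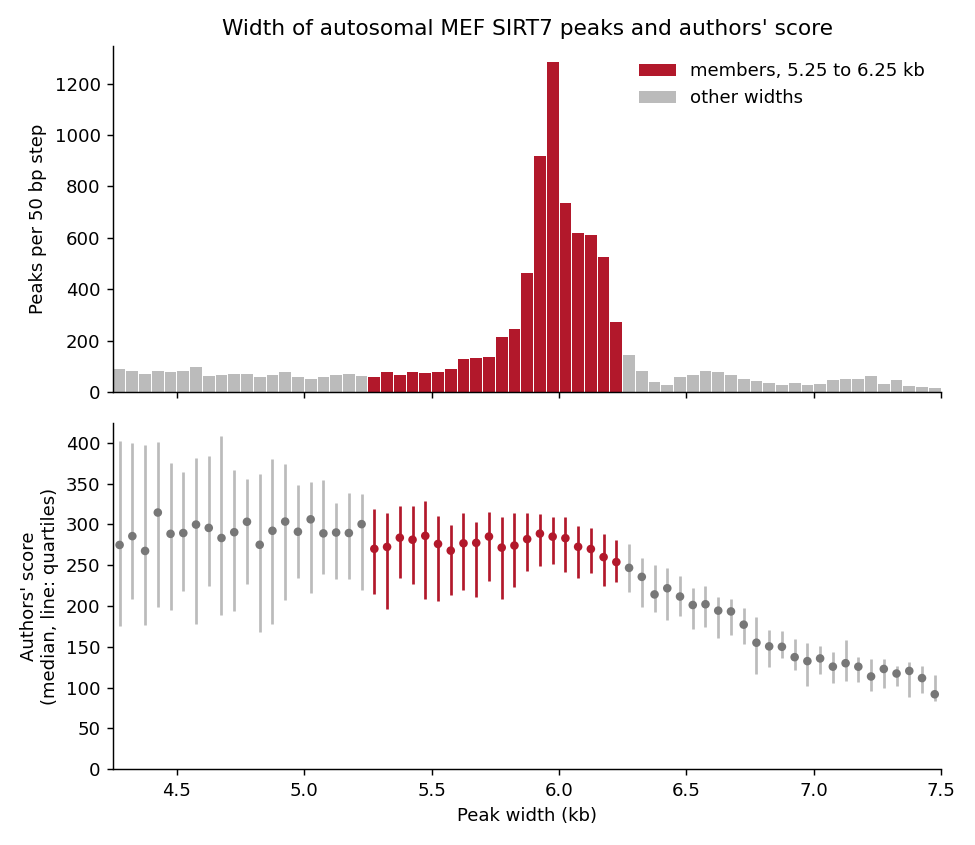
Width of autosomal MEF SIRT7 peaks in steps of 50 bp (x axis, kb) against the number of peaks per step (upper panel) and the authors' score (lower panel, point for the median, line for the quartiles), with the class in red. The red bars rise to 1282 peaks in the step from 5950 bp with a shoulder up to 6200 bp, and the median score stays between 254 and 289 across the class and lies lower at larger widths.

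The bounds of the class cut at different places of this distribution. Just outside the lower bound lay 2 peaks of 5248 bp, 6 peaks had exactly the width of the bound, and the steps of 50 bp on either side held 65 and 61 peaks, so the lower bound lay in a flat part. Just inside the upper bound lay 5 peaks of 6249 bp, and 3 peaks had exactly the width of the bound and stayed outside. The step below it held 273 peaks and the step above it 145, so the upper bound cut the falling edge of the main group. The median score was 254 in the step inside the upper bound and 247 in the step outside it. At the lower bound it was 270 in the step inside and 300 in the step outside.

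The authors' score, a value that the peak caller gave each peak, was narrow within the class. Its median was 278 (277 to 279), with quartiles of 237 and 306, against a median of 131 (130 to 132) and quartiles of 78.5 and 244 for autosomal peaks of other widths. Scores of 200 up to 350 were held by 5544 members (81.3%) and by 17.9% of the other peaks. Only 190 members (2.79%) scored below 100 and 31 above 400. Across members the score was nearly unrelated to width (Spearman's rho -0.10 over 6818 members, which share 1 library), and the median score was 286 in the 3 steps of width from 5900 bp and 268 in the next 3 steps.

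A single member stood apart in score. It lay on chromosome 1 from 24617946 to 24623835 (mm9, counting from 1), was 5890 bp wide, and scored 1113 with no other peak within 10 kb. The second highest score, 458, belonged to a member of 5258 bp on chromosome 4 (22391005 to 22396262). A member of 5534 bp on chromosome 15 (13040736 to 13046269) scored 451. Chromosome 14 held the other two, 1 of 5310 bp (82300916 to 82306225) that scored 449 and 1 of 5487 bp (36529944 to 36535430) that scored 443. The last of these had a peak 1356 bp away, and the others had none within 10 kb. All 5 were narrower than the class median, and what lies under them was not tested.

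All 19 autosomes held members, but not at the same density. Counted between the outermost peaks of every autosome, members numbered 2.82 per Mb (2.76 to 2.89). Chromosome 3 was the densest with 574 members, 3.67 per Mb (3.37 to 3.98), and chromosome 11 the sparsest with 214, 1.80 per Mb (1.57 to 2.06), a ratio of 2.04 between them. Chromosome 16 followed chromosome 3 with 3.27 per Mb (2.92 to 3.66), and chromosome 19 came next to chromosome 11 with 1.90 per Mb (1.57 to 2.29). The intervals of chromosomes 16, 1, 6, 4, 10 and 18, from 3.06 to 3.27 per Mb, overlapped one another, so their order is not resolved by counting error. The interval of chromosome 3 overlapped each of theirs as well. That of chromosome 11 overlapped those of chromosome 19 and of chromosome 9, which had 2.23 per Mb (1.97 to 2.51). The ranks at both ends are therefore not resolved either. Against all other autosomes together, the interval of the ratio lay above 1 for 5 autosomes (3, 16, 1, 6 and 4), below 1 for 5 (11, 19, 9, 17 and 2) and held 1 for 9. These were 19 such ratios without adjustment, and their intervals treat members as independent. Member counts in 1 Mb bins varied more than that allows, with a variance 2.02 times the mean, so the intervals are too narrow. The bound nearest 1 was 0.999 for chromosome 17 and 1.01 for chromosome 4, and such calls are not firm.

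The autosomes dense in members were mostly those dense in peaks of other widths. Across the 19 autosomes Pearson's r between the densities was 0.89 and Spearman's rho 0.78, both from 1 library whose read depth and mappable sequence they share. The highest and lowest autosome differed 2.04 times in members and 1.70 times in other peaks. Chromosome 11 had 0.626 times (0.544 to 0.718) the member density of the other autosomes and 0.698 times (0.668 to 0.730) their density of other peaks, and the intervals overlap. Chromosome 19 had 0.669 times (0.549 to 0.807) the member density and 0.848 times (0.800 to 0.897) the density of other peaks, and these intervals overlap at their ends. Chromosome 16 had 1.17 times (1.04 to 1.31) the member density with 1.02 times (0.980 to 1.07) the density of other peaks, again with overlapping intervals. As a share of the peaks of an autosome, members ranged from 8.44% (6.99 to 10.1) on chromosome 19 to 11.7% (10.5 to 12.9) on chromosome 16. Both intervals leave out the 10.4% of all autosomal peaks, that of chromosome 16 narrowly. The overlaps above therefore do not show that members and other peaks differ alike. These shares are the extremes of 19 autosomes, and their intervals treat peaks as independent.

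**Figure D2:**
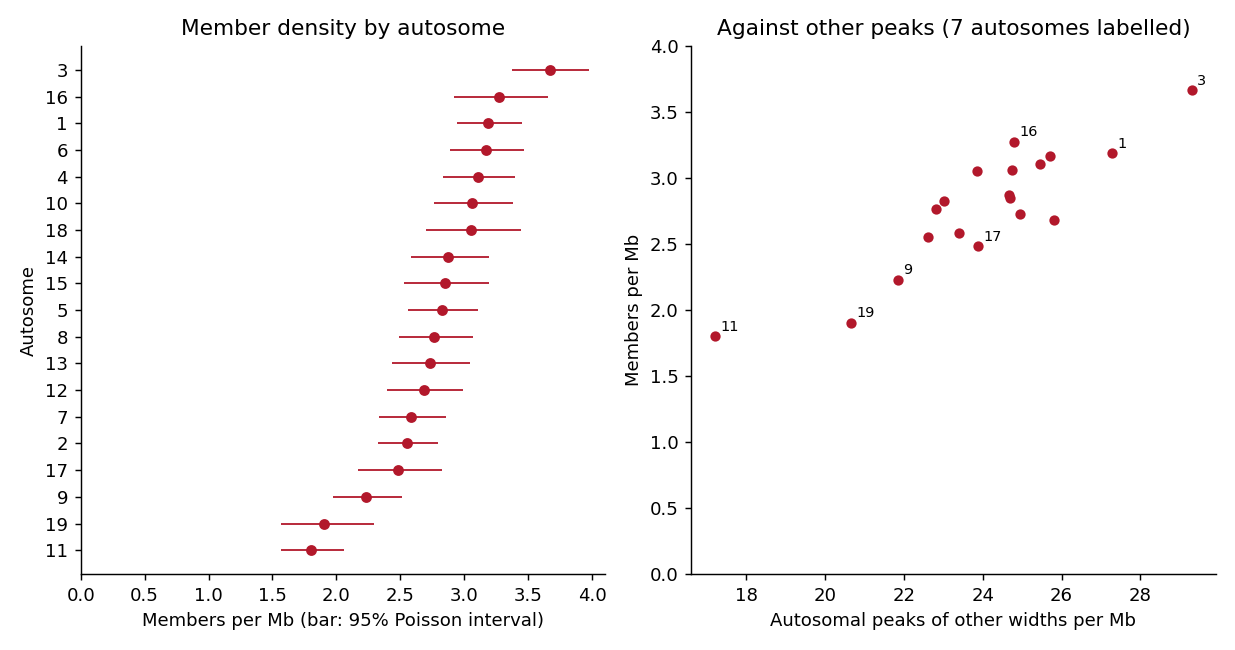
Left, members per Mb of each autosome (point) with the 95% Poisson interval (bar); right, members per Mb against autosomal peaks of other widths per Mb, 1 point per autosome, with 7 labelled. Chromosome 3 lies at 3.67 and chromosome 11 at 1.80 members per Mb, and both are also at the ends of the axis of other peaks.

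Neither the width nor the score of members differed much from autosome to autosome. The median width lay between 5956 bp (chromosome 17) and 5988 bp (chromosome 18), and the median score between 268 (chromosome 3) and 288 (chromosome 8). Chromosome 3, with most members per Mb, had the lowest median score. Chromosome 11, with the fewest, had a median score of 282 and a median width of 5958 bp.

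Along the autosomes, members thinned out towards the end far from the centromere. Mouse autosomes have their centromere at the start of the numbering, and each autosome was divided into 5 segments of equal length. Segments 1, 2 and 3 had 3.29 (3.13 to 3.45), 3.13 (2.98 to 3.30) and 3.24 (3.08 to 3.40) members per Mb, segment 4 had 2.58 (2.44 to 2.73) and segment 5 had 1.88 (1.76 to 2.00). Segment 5 held fewer members than segment 1 on 16 of 19 autosomes and was the poorest segment on 14. Peaks of other widths went the same way, from 28.7 per Mb in segment 1 to 18.7 in segment 5. Members were 10.3% (9.79 to 10.8) of all peaks in segment 1, 11.4% (10.8 to 11.9) in segment 2 and 9.14% (8.58 to 9.73) in segment 5, so their share of peaks was lowest there as well.

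In 1 Mb bins, members were spread thinly with a tail of rich bins. The 2425 bins held a median of 2 members, with quartiles of 1 and 4 and a highest count of 14. No member lay in 465 bins, 19.2% (17.6 to 20.8), of which 11 had no peak of any width. Bins with at least 5 members were 570 in number, 23.5% of bins, and held 52.4% of members, and 94 bins had at least 8. The variance of the count was 2.02 times its mean, against 6.31 times for peaks of other widths. The larger ratio goes with a larger mean, 24.2 other peaks per bin against 2.81 members, so the ratios do not rank the clustering of the sets. For members the ratio was 1.23 in bins of 200 kb and 4.84 in bins of 5 Mb.

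Bins rich in other peaks had more members. The bins were ordered by their other peaks and divided into 4 groups of nearly equal size. In the group with the fewest (0 to 14 each), the mean was 0.867 members (0.794 to 0.944), and 49.1% of bins had none. It was 2.19 (2.08 to 2.32), 3.66 (3.51 to 3.81) and 4.53 (4.36 to 4.70) in the next groups, and 1.16% of the richest bins had no member. As a share of all peaks, members were 8.48% (7.80 to 9.20) in the poorest group, 10.7% (10.1 to 11.2) in the second, 11.6% (11.1 to 12.0) in the third and 9.95% (9.60 to 10.3) in the richest. The share, unlike the number of members, was lower again in the richest group (33 to 66 other peaks). Because the other peaks that order the bins also enter the share, its course over the groups is partly built in. Across all bins Spearman's rho between the counts was 0.64, over bins that share 1 library. Neighbouring bins had like numbers of members (rho 0.41), and the likeness was 0.30 at 2 bins apart, 0.15 at 5 and 0.10 at 10. For peaks of other widths the same values were 0.55, 0.42, 0.20 and 0.13.

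**Figure D3:**
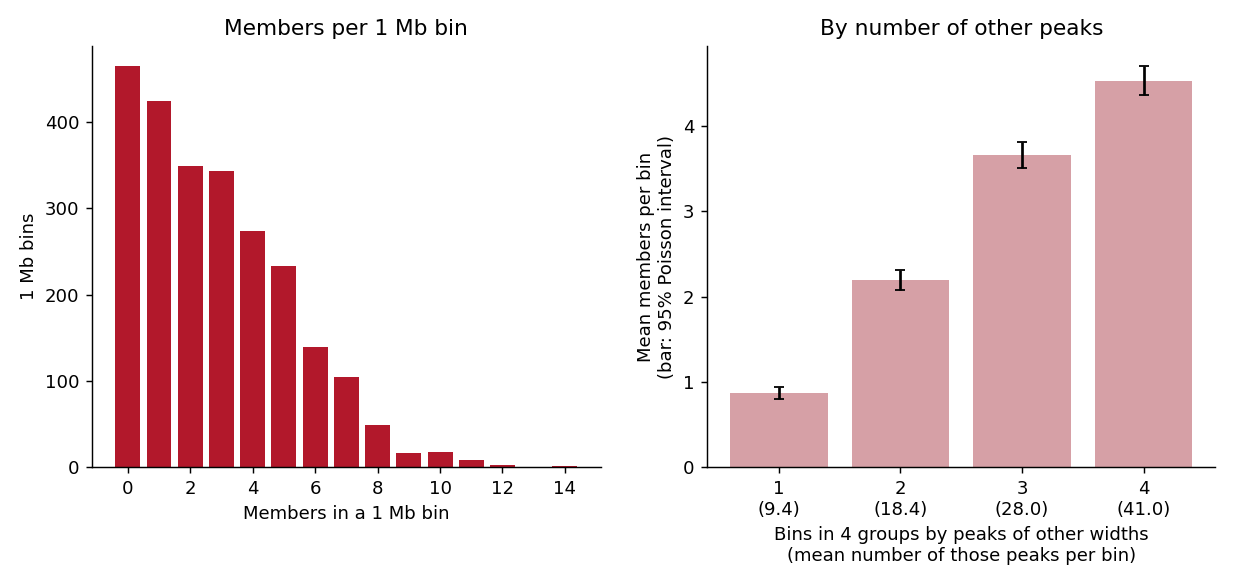
Left, number of 1 Mb bins (y axis) by the number of members in the bin (x axis); right, mean members per bin (bar, with 95% Poisson interval) in 4 groups of bins ordered by their number of peaks of other widths. On the left 465 bins have no member and 1 bin has 14; on the right the mean goes from 0.867 to 4.53.

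The bin with most members was 5 to 6 Mb of chromosome 7, with 14 members beside 41 other peaks. Its members scored from 61.1 to 308, with a median of 221, below the class median, and lay a median of 29.3 kb apart. A count of 12 was shared by 3 bins. The bin from 7 to 8 Mb of chromosome 3 had 12 members and 35 other peaks, with member scores from 202 to 316 and a median of 273. The bin from 22 to 23 Mb of chromosome 3 also had 12, beside 47 other peaks, with scores from 97.5 to 350. The last of the 3 was 14 to 15 Mb of chromosome 7, beside 45 other peaks. In the first 3 bins named, the members had median widths of 5985, 5930 and 5988 bp, within the narrow range that the rule allows. At the other extreme, the bin from 20 to 21 Mb of chromosome 12 held 47 other peaks and no member, and none of its peaks was 4.25 kb or wider. Those 47 peaks had a median width of 1084 bp and a median score of 66.4, against 131 for all autosomal peaks outside the class. The bins from 112 to 113 Mb of chromosomes 4 and 1 held 44 and 43 other peaks and no member, with median scores of 101 and 128. The bin of chromosome 1 had 2 peaks of 4.25 kb or wider, 1 of them of 6252 bp, just above the upper bound.

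Most gaps between members were longer than 100 kb. The gaps to expect from member density alone were not computed, so whether members lie closer or farther apart than that was not tested. The gap from the end of one member to the start of the next had a median of 169.6 kb (164 to 176) over 6799 gaps, with quartiles of 64.9 and 388 kb. Gaps of at most 10 kb made up 4.06% (3.60 to 4.56), or 1.32% (1.07 to 1.62) when measured between midpoints, at most 50 kb 20.1% (19.2 to 21.1) and at most 100 kb 34.3% (33.2 to 35.5). Another member within 10 kb was found for 542 members, 7.95% (7.32 to 8.62), and within 100 kb for 55.5% (54.4 to 56.7). Among short gaps, 30 were under 2 kb, whereas each step of 2 kb from 2 to 20 kb held 55 to 67. Members with another within 10 kb had a median score of 267 (259 to 273), against 278 (277 to 280) for the rest. Their median widths were 5973 bp (5962 to 5981) and 5972 bp, and the rule confines the width of both.

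**Figure D4:**
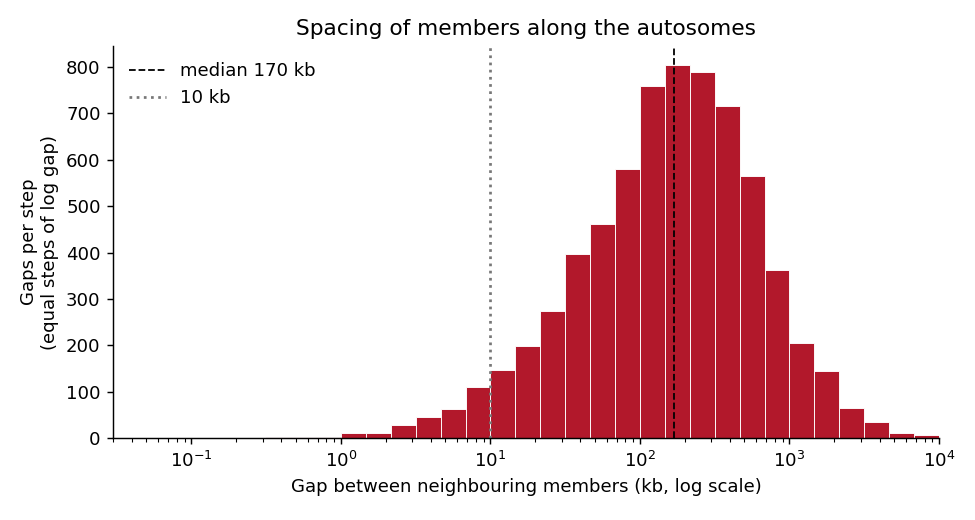
Number of gaps (y axis) by the gap between neighbouring members on the same autosome (x axis, kb, log scale, equal steps of log gap), with the median (dashed) and 10 kb (dotted). Most gaps lie around the median of 169.6 kb and 276 of 6799 are at or below 10 kb.

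When members were chained at gaps of at most 10 kb, 6276 stood alone, 257 runs had 2 members, 8 had 3 and 1 had 4. The run of 4 lay on chromosome 18 from 33171736 to 33210101, 38366 bp long, with no other peak between its members. Its members were 6247, 6198, 6165 and 5958 bp wide, and scored 335, 235, 138 and 280. The 8 runs of 3 likewise had no other peak between their members, and they lay on chromosomes 4, 6, 9, 10, 14 and 16, with 3 of them on chromosome 14.

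The closest pair lay on chromosome 14 from 73348424 to 73359951, with members of 5954 and 5523 bp that were 51 bp apart and scored 146 and 53.2. The next pair, on chromosome 7 from 13995086 to 14007035, was 282 bp apart, with members of 5628 and 6040 bp and scores of 52.6 and 190. The third, on chromosome 7 from 112492640 to 112505148, was 334 bp apart, with members of 6119 and 6056 bp and scores of 237 and 221. In the first and second pairs one member scored close to the lowest score of the list, 50.0. In the third both scored nearer the class median.

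The longest stretches without a member were not empty of SIRT7 peaks. The longest, 8.86 Mb, ran on chromosome 17 from 23829251 to 32692067 and held 81 peaks of other widths, 9.14 per Mb. The next, 8.82 Mb, lay on chromosome 4 from 128116102 to 136937338 with 53 other peaks, 6.01 per Mb. Both are below the 24.2 other peaks of an average 1 Mb bin. Member-free gaps longer than 2 Mb numbered 143.

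Most members had no near neighbour of any width. Of the 6818, 3582 (52.5%, 51.3 to 53.7) had no other SIRT7 peak within 10 kb of either edge, 2248 had 1, 788 had 2, 178 had 3, 21 had 4 and 1 had 5. The remaining share, 47.5% (46.3 to 48.7), compares with 54.6% (54.0 to 55.1) of peaks under 1 kb, 65.5% (64.7 to 66.3) of those of 1 to 2 kb, 52.9% (50.3 to 55.5) of those of 4.25 to 5.25 kb and 42.8% (39.9 to 45.8) of those of 6.25 to 7.25 kb. The share was 62.9% (61.8 to 63.9) for peaks of 2 to 4.25 kb and 44.0% (37.3 to 50.9) for those of 7.25 kb or more. Peaks lay on both sides of 608 members (8.92%). The numbers on the 2 sides were alike, with 2194 on the lower and 2253 on the higher coordinate side. By autosome the share with a near peak ran from 38.8% on chromosome 11 to 52.7% on chromosome 4.

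Most peaks near members were under 2 kb wide, but a smaller share of them was under 1 kb than in the whole list. The 3236 members with a near peak had 4447 peaks within 10 kb in all, counting a peak once for each member it was near. Of these, 43.6% (42.2 to 45.1) were under 1 kb wide, 24.6% (23.4 to 25.9) were 1 to 2 kb, 14.6% (13.6 to 15.7) were 2 to 4.25 kb and 12.4% (11.5 to 13.4) were themselves members. Among all autosomal peaks the same classes made up 50.9%, 22.1%, 12.3% and 10.4%. With members left out on both sides, the 3895 near peaks had a median width of 1004 bp (974 to 1037), against 878 bp (872 to 884) for all autosomal peaks outside the class, and a median score of 123 (119 to 128), against 131 (130 to 132). With members kept on both sides the medians were 1150 bp (1117 to 1187) against 978 bp (970 to 987), and 140 (136 to 145) against 146 (145 to 147).

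The member with most near peaks lay on chromosome 7 from 89300041 to 89306005, was 5965 bp wide and scored 281. It had 3 peaks on its lower and 2 on its higher coordinate side, 638 to 2392 bp wide and scoring 59.6 to 152. A further 21 members had 4 near peaks, of which the first by position are given. One lay on chromosome 1 from 46604621 to 46610490, with 3 of its near peaks under 1 kb wide and the widest of 5946 bp. The other lay on chromosome 1 from 142606645 to 142612744, with near peaks of 442 to 1939 bp.

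Few peaks lay next to the edges of members. Within the first kb of an edge there were 14.7 peaks (12.8 to 16.9) per 1000 flanks, in the second 15.0 (13.0 to 17.2), in the third 24.1 (21.5 to 26.8) and in the fourth 31.7 (28.8 to 34.8), where a flank is 1 side of 1 member. From the fifth kb on the number stayed between 35.9 and 41.7 per kb out to 20 kb. Over the first 3 kb together the rate was 0.462 times (0.428 to 0.498) that at 5 to 20 kb, 17.9 against 38.8 per 1000 flanks and kb. The ratio was 0.458 (0.410 to 0.511) on the lower and 0.466 (0.418 to 0.517) on the higher coordinate side, and it was below 1 on each of the 19 autosomes.

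Narrow peaks showed the opposite beside their edges. Around peaks under 1 kb the first kb held 2.66 times (2.59 to 2.73) the rate at 5 to 20 kb, around peaks of 1 to 2 kb 3.98 times (3.85 to 4.11), and around those of 2 to 4.25 kb 3.67 times (3.50 to 3.84). Around the class just below the members, 4.25 to 5.25 kb, the first kb held 1.52 times (1.30 to 1.78) the far rate, and the 1 to 3 kb after it 0.442 times (0.358 to 0.540). Around members the same values were 0.380 (0.329 to 0.437) and 0.503 (0.460 to 0.549). Around the class just above, 6.25 to 7.25 kb, they were 0.652 (0.475 to 0.876) and 0.440 (0.335 to 0.568). For the 218 peaks of 7.25 kb or more they were 0.486 (0.207 to 0.972) and 0.395 (0.207 to 0.688), from 8 and 13 near peaks. The sparse zone from 1 to 3 kb was therefore shared by members and these other wide classes. At 2 to 4.25 kb of width the ratio there was 0.711 (0.663 to 0.761). In the first kb, members and both wider classes had few peaks and the class just below had many. The gap at which the peak caller joins stretches into 1 peak is not given in the sources used here, and its part in these values was not tested.

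**Figure D5:**
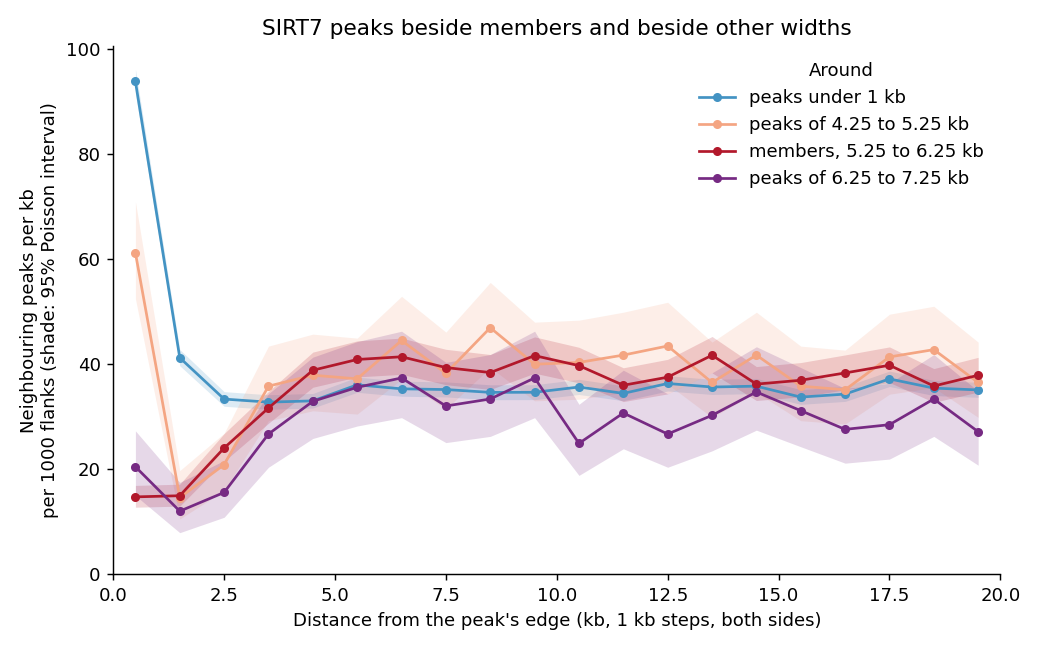
Neighbouring SIRT7 peaks per kb and per 1000 flanks (y axis, shade for the 95% Poisson interval) by distance from the edge of the peak (x axis, kb, both sides together) around members and around peaks of 3 other width classes. The curve of members lies at 14.7 in the first kb and levels off near 39 after 5 kb, where that of peaks under 1 kb starts at 93.9.

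The few peaks next to members had low scores. The 201 peaks within 1 kb of a member had a median score of 84.3 (76.4 to 90.9), and 63.7% of them scored below 100. The 532 peaks at 1 to 3 kb had a median of 117 (110 to 130), the 962 at 3 to 5 kb 141 (133 to 152) and the 2752 at 5 to 10 kb 154 (147 to 162). Their median widths were 1644 bp (1473 to 1890) within 1 kb, 1756 bp (1500 to 1972) at 1 to 3 kb, 1026 bp (967 to 1109) at 3 to 5 kb and 1058 bp (1018 to 1106) at 5 to 10 kb, so both medians within 3 kb were above those beyond.

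Members of low score had near peaks more often than those of high score. A peak within 1 kb was found for 48 of the 190 members that scored below 100, 25.3% (19.3 to 32.1). It was found for 10.3% (8.26 to 12.6) of the 798 that scored 100 up to 200, for 1.19% (0.922 to 1.51) of the 5544 that scored 200 up to 350, and for 1 of the 286 that scored 350 or more. Within 10 kb the shares were 76.8% (70.2 to 82.6), 61.7% (58.2 to 65.0), 44.7% (43.4 to 46.0) and 41.96% (36.2 to 47.9). The ratio of peaks within 3 kb to those at 5 to 20 kb was 0.660 (0.603 to 0.721) for members below their median score and 0.240 (0.205 to 0.278) for the others. Both values come from the same peak call, and the local background that the caller set for each peak is not in the list.

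The K562 list had few peaks of this width. On the K562 autosomes 289 of 40790 peaks were 5.25 to 6.25 kb wide, 0.709% (0.629 to 0.795). Their median width was 5647 bp (5607 to 5682), and 6.23% (3.73 to 9.67) were wider than 6000 bp, against 40.2% (39.1 to 41.4) of the MEF members. Their median score was 296 (290 to 303). The lists differ in species and build, their depths are unknown, and the difference was not tested.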

How the data were processed

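SIRT7 ChIP-seq peaks of wild-type MEFs (mm9) and K562 cells (hg19) were used as deposited. Per the labels' protocols, sheared chromatin measured 150 to 300 bp and libraries 350 to 400 bp, so a peak several kb wide was assembled from many fragments. Per the submitters' processing notes, reads were handled with Bowtie and SAMtools 0.1.19 and peaks named by MACS 1.4.2, beside Trimmomatic 0.36, FastQC 0.11.3 and deepTools 2.4.2. Not given in the sources used here are settings, the control, pooling of replicates and the treatment of reads that map to several places, which bears on peaks in repeats. The deposited score is 1 value per peak from the authors' peak caller, with a lowest value of 50.0 in both lists. It was used to describe and filter peaks within a list.

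Width was the end minus the start as deposited, and 1 was added to starts to count from 1. Peaks were assigned to bins by their midpoint, and gaps run from edge to edge. Intervals are exact Poisson for densities, exact conditional for ratios, exact (Clopper-Pearson) binomial for shares and by order statistics for medians, at 95%. Checks of the code on planted lists, the largest with 1000 members, recovered 6 of 6 planted quantities. They covered the choice of members, near peaks, gaps, merging and recurring pairs, but not bins, segments or the flank profile. Calculations used scipy 1.17.1, pandas 2.3.3 and numpy 2.4.6 under Python 3.11.15, and figures matplotlib 3.10.9. Members and comparisons were chosen with earlier results of these data known. The flank profile and the split by score were added after neighbour distances were seen. Regions were named by rule: the 5 highest scores, 3 fullest bins, 3 member-free bins richest in other peaks, 2 longest member-free gaps, 3 closest pairs, the longest run and the 3 members with most near peaks, with ties in bins and members broken by position. Alternatives were other score thresholds, width bounds, bins and distances, merging of peaks closer than 1 kb, and leaving out neighbouring pairs whose widths and gap recur elsewhere. The gene table at hand was of another build and was not used.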

Additional observations from a re-analysis of the deposited data

How the results depend on the processing

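Values with no test were called stable when an alternative stayed inside the 95% interval of the reported value. For the ratio of variance to mean no such interval was computed. A set band of 1.35 to 3.03 around its value of 2.02 was used in its place. Chromosome 11 stayed below and chromosome 3 above the other autosomes under each setting run. Leaving out recurring pairs of peaks (10 members) and taking occupied 1 Mb bins as length moved no value outside its interval or band, nor did shifting bins by 500 kb. With scores of at least 100 there were 2.75 members per Mb, 35.0% of members had a peak within 10 kb and the median score was 279. With scores at or above the list median, these were 2.63, 27.6% and 282, and the median gap between members was 184 kb. Members of 5.75 to 6.25 kb had 2.44 per Mb, a median gap of 198 kb and 22.9% of bins without a member, and those of 5 to 6.5 kb had 3.10, 157 kb, 17.1% and a median score of 276. After peaks closer than 1 kb were merged, the class had 7284 peaks, 3.02 per Mb, a median gap of 156 kb, 45.9% with a near peak and a median score of 273. Bins of 200 kb and 5 Mb had no member in 60.9% and 1.78% of cases, with ratios of variance to mean of 1.23 and 4.84. A peak within 5 kb was found for 22.5% of members, within 20 kb for 72.8%, and within 10 kb between midpoints for 28.5%. Gaps between members of at most 10 kb were 1.32% by midpoints. For the main value of each result, over planned and added settings together, 29 comparisons moved outside the interval and 16 stayed stable. Settings that keep fewer or more peaks move such values by construction.

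The rate within 3 kb of members stayed below that at 5 to 20 kb in each added setting. Its ratio was 0.614 for members of 5.25 to 5.75 kb, 0.660 below and 0.240 at or above the members' median score, 0.326 with scores of at least 100, 0.241 with scores at or above the list median and 0.367 after merging, which empties the first kb by construction. No paired analysis was possible because a single MEF SIRT7 list was analysed, while the labels name replicates 1 and 2 of that group. Unknown read depth limits every count, and SIRT7 may be present where no peak was called.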
